A study of Mus musculus with 244 samples.

Results

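The comparison set 7 oocytes of primordial follicles against 32 somatic cells of primary follicles, all on library plate 2 of a single-cell RNA sequencing study of early mouse follicles. These 39 cells, of 244 in the study, were chosen by plate number, cell type and the follicle stage in the sample title, and no measured value entered the choice. Both groups came from pooled ovaries of CD-1 mice at postnatal day 6, and each cell gave 1 SMART-Seq2 library, a method that reads full-length transcripts. Primordial follicles were kept in Accutase, a mix that detaches cells, for 5 min and drawn through 20 µm pipettes. Primary follicles were drawn through 30 µm pipettes after 10 min in Accutase by one description of the collection and 5 min by another. The plate held 1 other cell, an oocyte of a primary follicle, which carried the plate code of the somatic cells, whereas the 7 primordial follicle oocytes carried a different code. Cell type, follicle stage and plate code cannot be told apart between the groups. No label ties a cell to an animal, so that each group counted as 1 sample. No test across cells was made, the 7 and 32 cells are not replicates, and all intervals are 95% intervals of the counting error of summed reads.

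A primordial follicle holds an oocyte arrested in meiotic prophase inside a single layer of flat pre-granulosa cells. In a primary follicle the layer has become cuboidal granulosa cells, and the oocyte has begun to grow. Oocytes store maternal mRNA and secrete growth factors such as BMP15, granulosa cells make inhibins, anti-Müllerian hormone and steroid enzymes, and gap junctions join the cells of a follicle.

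The promoters of genes that carry the contrast are printed first, so that the related and the unrelated starts can be seen beside the levels that follow. *Bmp15* was a marker chosen for the oocytes, *Fbxw18*, *Fbxw24* and *Fbxw26* stood among the genes with the largest ratios in favour of the oocytes, *Gja1* and *Amhr2* among those in favour of the somatic cells, and *Jun* was higher in every somatic cell than in every oocyte. Each line gives the 250 bases before the RefSeq start on build GRCm38.p6, 5′ to 3′ on the strand of the gene. Capitals mark matches, on either strand, to 5 short motifs: CANNTG (the E-box), TAATTG (NOBOX), TGANTCA (AP-1), TGACGTCA (the cyclic AMP response element) and AAGGTCA (NR5A).
Bmp15: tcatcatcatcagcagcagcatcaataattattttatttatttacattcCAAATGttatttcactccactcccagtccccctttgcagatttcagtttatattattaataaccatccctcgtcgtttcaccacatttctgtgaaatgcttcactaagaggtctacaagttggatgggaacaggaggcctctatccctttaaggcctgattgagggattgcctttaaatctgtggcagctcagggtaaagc
Fbxw18: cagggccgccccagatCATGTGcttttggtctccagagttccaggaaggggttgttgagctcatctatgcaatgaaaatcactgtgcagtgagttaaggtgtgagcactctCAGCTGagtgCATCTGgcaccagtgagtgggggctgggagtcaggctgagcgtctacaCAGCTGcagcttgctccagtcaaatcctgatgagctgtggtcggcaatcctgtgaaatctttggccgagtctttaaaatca
Fbxw24: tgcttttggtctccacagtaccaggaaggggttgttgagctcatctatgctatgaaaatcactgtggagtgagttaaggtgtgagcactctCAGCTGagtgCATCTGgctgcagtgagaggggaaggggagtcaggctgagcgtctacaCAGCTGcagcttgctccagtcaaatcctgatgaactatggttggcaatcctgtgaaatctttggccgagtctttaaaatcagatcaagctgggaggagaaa
Fbxw26: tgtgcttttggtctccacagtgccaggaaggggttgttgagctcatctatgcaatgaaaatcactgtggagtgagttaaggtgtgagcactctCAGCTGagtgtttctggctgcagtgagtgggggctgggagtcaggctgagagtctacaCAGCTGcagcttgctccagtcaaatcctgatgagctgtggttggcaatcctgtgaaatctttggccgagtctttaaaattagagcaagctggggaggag
Gja1: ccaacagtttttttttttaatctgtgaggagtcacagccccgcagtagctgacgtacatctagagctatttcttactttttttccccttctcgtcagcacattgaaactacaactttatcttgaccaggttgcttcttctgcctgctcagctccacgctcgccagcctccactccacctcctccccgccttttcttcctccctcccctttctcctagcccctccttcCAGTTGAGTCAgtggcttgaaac
Amhr2: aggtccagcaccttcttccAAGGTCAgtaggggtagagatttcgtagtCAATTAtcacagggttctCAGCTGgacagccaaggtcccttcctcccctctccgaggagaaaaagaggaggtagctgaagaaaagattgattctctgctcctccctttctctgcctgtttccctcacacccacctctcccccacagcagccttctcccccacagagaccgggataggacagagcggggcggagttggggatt
Jun: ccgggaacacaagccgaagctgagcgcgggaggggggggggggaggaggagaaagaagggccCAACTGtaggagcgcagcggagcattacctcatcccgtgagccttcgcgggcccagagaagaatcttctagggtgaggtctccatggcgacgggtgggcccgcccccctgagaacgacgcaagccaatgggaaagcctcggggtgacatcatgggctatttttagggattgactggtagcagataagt

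The windows lie at chrX:6320725-6320974 (minus strand) for *Bmp15*, chr9:109702701-109702950 (minus strand) for *Fbxw18*, chr9:109626060-109626309 (minus strand) for *Fbxw24*, chr9:109746090-109746339 (minus strand) for *Fbxw26*, chr10:56377050-56377299 (plus strand) for *Gja1*, chr15:102445117-102445366 (plus strand) for *Amhr2* and chr4:95052223-95052472 (minus strand) for *Jun*. The 3 F-box windows were near-copies of each other. At their best ungapped offset, *Fbxw18* and *Fbxw26* shared 95.7% of 232 bases, *Fbxw18* and *Fbxw24* 94.3% of 230 bases, and *Fbxw24* and *Fbxw26* 92.7% of 248 bases, against 29.1% to 35.9% for every other pair of the 7 windows. *Fbxw18* had 4 E-boxes, *Fbxw24* had 3 and *Fbxw26* had 2. The E-box is a common string, present in 66.2% of the 32536 promoter windows of the table. It was found in the windows of 10 of 10 genes at the oocyte end of the ranking below that had a promoter entry and in 7 of 9 at the somatic end. A gene was counted there if any of its windows matched, whereas the 66.2% is over single windows. The 10 include the 3 near-copy F-box genes. In the *Gja1* window an AP-1 match shared 2 bases with an E-box (AP-1 matches occur in 6.73% of all windows), and the *Amhr2* window held 1 NOBOX match (7.18% of all windows) and 1 NR5A match (4.09%). The cyclic AMP response element (1.56% of all windows) had no match in the 7. These matches describe letters and not binding.

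The counts of the oocytes summed to between 83781 and 545912 per cell, with a median of 507662, and those of the somatic cells to between 5150.2 and 332717, with a median of 100363. Thinned to 20000 counts a cell, the oocytes had reads of 1371 to 2236 genes (median 1665) and the 31 somatic cells deep enough had 639 to 2008 (median 1220). Without thinning the ranges were 2554 to 3845 and 913 to 2826 genes. The share of reads in introns was lower in the oocytes, 4.81% to 14.1% against 9.77% to 29.1%, as was the share of ribosomal RNA in the middle of the range, with medians of 1.36% and 12.2%. Genes named only by a clone or a predicted-gene number took 43.5% of the pooled oocyte counts and 11.9% of the pooled somatic counts. The methods of the study name a filter to protein coding genes, whereas the table used here holds 5278 clone-named genes with values on the plate, and the totals behind every CPM include them. Because CPM are counts scaled to the same fixed total in each cell or group, this difference in makeup moves every ratio: TMM factors would shift all log2 ratios by 1.09 and median-of-ratios factors by 1.29 in favour of the oocytes. The part of depth, makeup or RNA quality in the ratios below was not tested.

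The markers went with the labels. *Bmp15*, an oocyte-secreted growth factor, had 1501, 3198, 2125, 1380.0, 3394, 1351 and 728.1 CPM in the oocytes, listed here and below from replicate 6 to replicate 12. Every oocyte was above the highest somatic cell, at 26.6 CPM, and 5 of 32 somatic cells had any read. *Dazl*, whose product binds RNA in germ cells, was read at 257.3, 3487, 3174, 1067, 685.1, 762.3 and 2232 CPM in the oocytes and had reads in 3 somatic cells, the highest at 334.6 CPM. That cell stood above the lowest oocyte, so that the groups overlapped for *Dazl* but not for *Bmp15*. *Inha*, the alpha subunit of inhibin, had 0, 0, 0, 43.9, 1.83, 5.91 and 155.2 CPM in the oocytes and 0, 17385 and 46811 CPM at the lowest, median and highest somatic cell, with reads in 28 of 32. The full lists of marker genes on which the study scored its cells, which include *Bmp15*, *Dazl* and *Inha*, moved the same way. In them 4 of 4 oocyte markers compared were 4-fold or more higher in oocytes, with a median log2 ratio of 8.79. Of the somatic markers 13 of 13 were 4-fold or more higher in somatic cells, with a median of -8.82 (12 of 13 without the 5 somatic cells with stroma genes described below). Of the 19 oocyte markers 6 had values on this plate, and of the 21 somatic markers 18 had, so that the lists were read in part, and a gene without values is missing rather than 0. The study chose both lists and removed cells that scored highly for the markers of the other type, so their direction is not independent evidence.

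**Figure D1:**
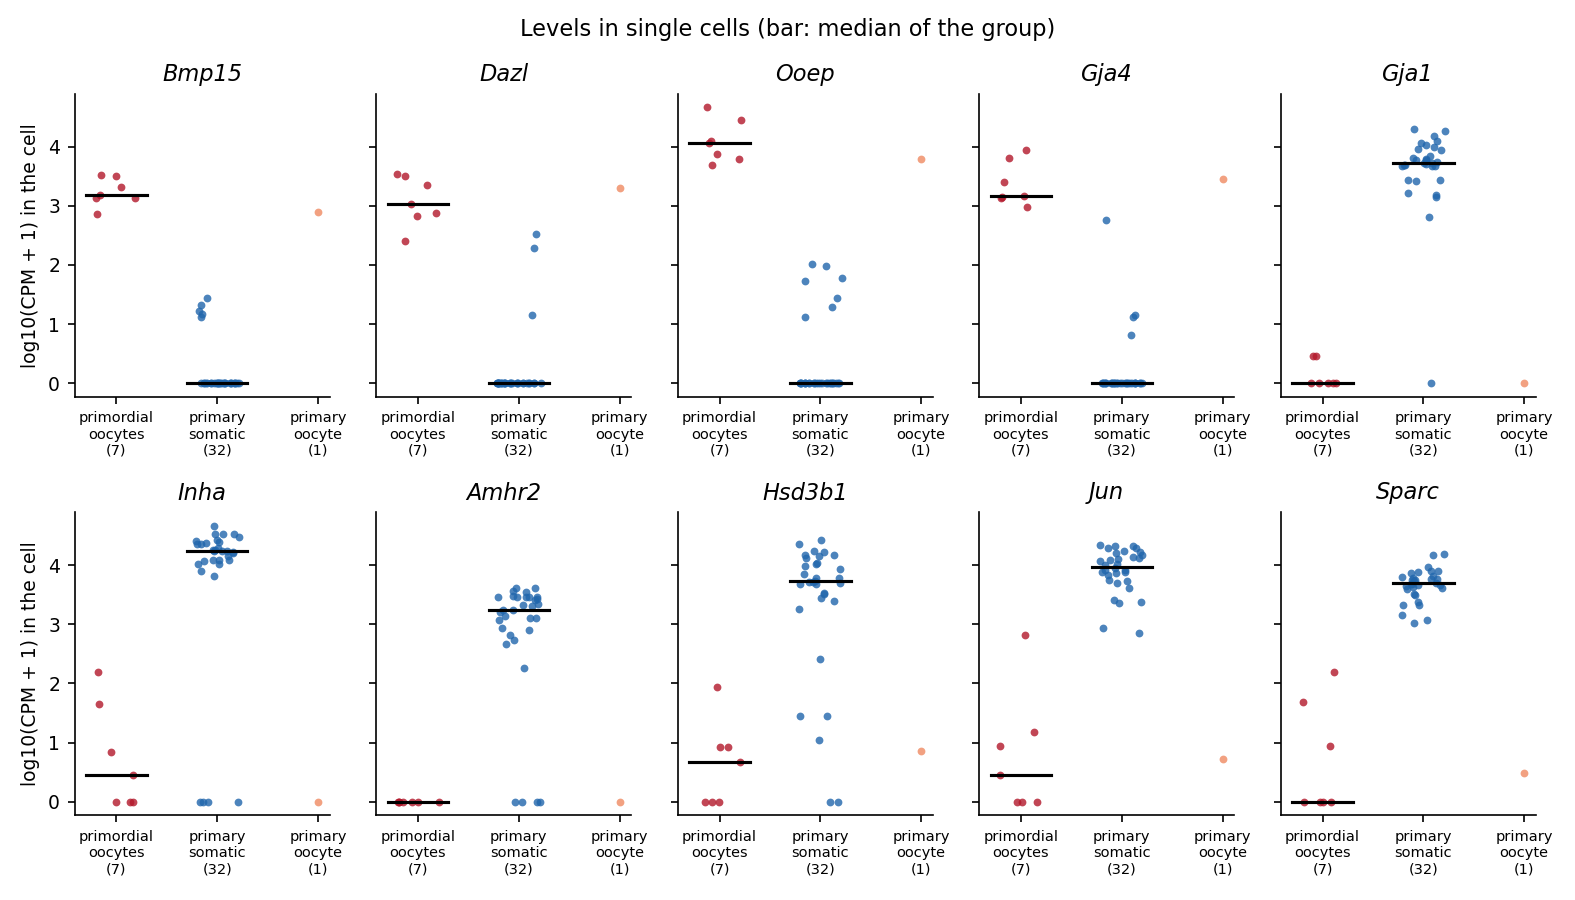
Each point is 1 cell, with log10(CPM + 1) of the cell on the vertical axis, for 10 genes in the 7 primordial follicle oocytes, the 32 primary somatic cells and the 1 primary follicle oocyte of plate 2; bars are group medians. *Bmp15*, *Ooep* and *Gja4* had every oocyte above every somatic cell, and *Jun* and *Sparc* the reverse.

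Of the 15672 genes with values on the plate, 5225 had at least 5 CPM in the pooled counts of either group and were compared. In all, 957 genes were 4-fold or more higher in the oocytes (18.3% of those compared) and 2768 were 4-fold or more higher in the somatic cells (53%), which puts 71.3% past 4-fold in either direction. The median log2 ratio of oocytes over somatic cells was -2.35, and any list of genes is to be read against that value. The balance depended on the scaling. Of the genes past 4-fold, 25.7% were higher in oocytes, against 37.1% with TMM factors, 39.8% with median-of-ratios factors, 37.1% with clone-named genes left out and 79.6% when medians of single cells replaced the pooled counts. Among the compared genes 1115 had no count in the oocytes and 505 had none in the somatic cells.

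The single cells gave a stricter reading. Every oocyte was above every somatic cell for 151 genes, 2.89% of those compared, of which 38 were clone-named. Every somatic cell was above every oocyte for 10 genes, or 0.191%. Those 10 were *Akr1cl*, *Fbn2*, *Gstm1*, *Ier2*, *Ifitm2*, *Jun*, *Rps3a1*, *S100a11*, *Sparc* and *mt-Nd1*, named after their values were seen. With the cells thinned to a common depth the counts were 62 and 7, and without the oocyte of the lowest depth 270 and 15.

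**Figure D2:**
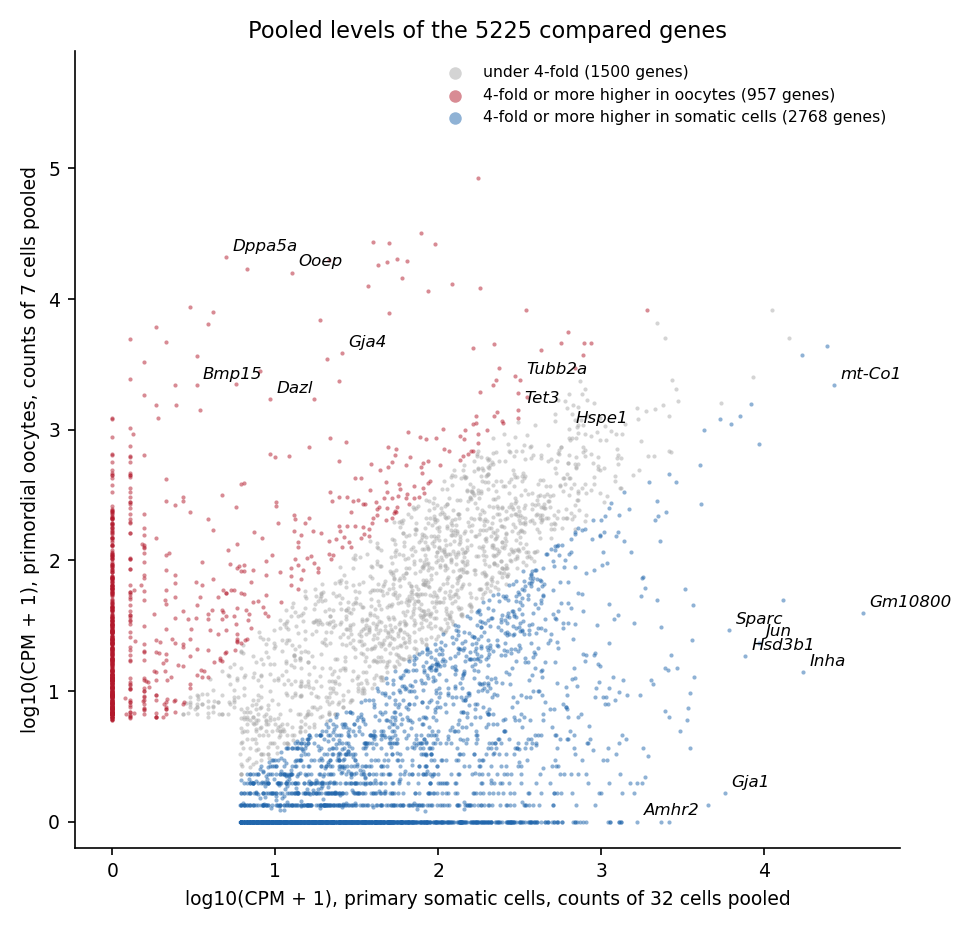
Each point is 1 of the 5225 compared genes, with log10(CPM + 1) of the 32 somatic cells pooled on the horizontal axis and of the 7 oocytes pooled on the vertical axis, coloured by whether the ratio reached 4-fold. Columns of points at the left edge are genes at 0 or a few counts in the somatic cells, and the lines along the bottom are genes at 0 or a few counts in the oocytes.

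Ranked by ratio among genes with at least 50 CPM and reads in at least 50% of the cells of the higher group, the oocyte end held *Fbxw18*, *Fbxw26*, *Map3k6*, *Dppa5a*, *Fbxw24*, *Mos*, *Ninj2*, *Pkd2l2*, *Tubg2*, *Arg2*, *Bcl2l10*, *Khdc1b*, *Oog3*, *Klf17* and *Cmya5*, after 2 clone-named genes were passed over. *Fbxw18*, an F-box protein of the kind that presents substrates to SCF ubiquitin ligases, had 1218, 10079, 9457, 1212, 3309, 3048 and 966.8 CPM in the oocytes and a read in 1 somatic cell. Its pooled levels were 4954 and 0.286 CPM, a log2 ratio of 14.08 (11.60 to 19.38). *Fbxw24* had 1999, 16464, 16434, 7397, 4388, 3306 and 525.2 CPM, and *Fbxw26* 664.4, 4237, 3945, 2253, 1535, 1483 and 358.1 CPM. All 3 were lowest in replicate 12 and highest in replicates 7 and 8. The genes lie together on chromosome 9, with 14.9 kb between *Fbxw18* and *Fbxw26* and 50.7 kb between *Fbxw18* and *Fbxw24*. The windows before their starts are near-copies (above). The likeness of their transcripts, on which the split of reads between them rests, was not measured. In all 5 of the 15 lie on chromosome 9, which holds 5.47% of the 4114 compared genes that have a position.

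*Dppa5a*, a KH-domain protein of germ and pluripotent cells, had 84363, 16310.4, 12383, 33648, 5469, 3649.9 and 1645 CPM in the oocytes and no more than 388.3 CPM in any somatic cell. It lies at chr9:78367052-78368177 (GRCm38), 7.93 kb from *Ooep* at chr9:78376109-78378725, whose product belongs to the subcortical maternal complex of oocytes and which had 46490.4, 12404, 11672, 28816, 6215, 4871 and 7460.0 CPM. Replicates 6 and 9 were the highest oocytes for both genes. The pooled log2 ratios were 12.34 (11.60 to 13.21; 11.74 without replicate 6) and 10.40 (9.96 to 10.88), and neither gene overlapped between the groups. *Ooep* was the 1 member of the 10-gene list of that complex with values on this plate.

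*Mos*, the kinase that drives the meiotic MAP kinase cascade, had 983.2, 8099.8, 7048, 9604, 1009, 721.0 and 393.9 CPM in the oocytes and at most 14.8 CPM in a somatic cell, a log2 ratio of 12.01 (10.65 to 13.88). *Pkd2l2*, a polycystin channel protein, had 5425, 21159, 24028, 31824, 8542, 8522 and 1476 CPM against at most 30.6. *Bcl2l10*, a BCL2 family member of oocytes, spread most widely of these, from 214.8 CPM in replicate 12 to 14159 in replicate 9. All 3 separated every oocyte from every somatic cell. Of the 15 genes at this end 12 did so, 13 had reads in every oocyte, and 9 rested on only 1 to 3 somatic counts, which makes their upper limits wide. *Ninj2* and *Klf17*, a zinc-finger transcription factor, were at 0 in replicate 12.

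The oocyte gene families moved together. All 6 compared members of 24 were past 4-fold, with a median of 10.87, and all 6 put every oocyte above every somatic cell. *Khdc1a*, *Khdc1b* and *Khdc1c* are KH-domain genes that lie together on chromosome 1. *Khdc1c* lies within the 31.4 kb between *Khdc1a* and *Khdc1b*, 12.7 kb from *Khdc1b*. The 3 had pooled levels of 884.7, 6388 and 432.3 CPM in the oocytes and 0, 2.86 and 0.286 CPM in the somatic cells. With no somatic count, the ratio of *Khdc1a* is a bound, at least 1029.8-fold. *Khdc1b* had 2072, 5340.0, 4414, 3974, 9387, 11324 and 6532 CPM, highest in replicates 10 and 11. *Oas1d*, an oocyte member of the oligoadenylate synthetase family, had 1534, 6466, 5157, 1442, 3700.0, 2246 and 5421 CPM, and *Oog3*, an oogenesin, 643.4, 1274, 480.0, 436.1, 717.4, 258.0 and 59.7 CPM. Members of these families are similar in sequence, so that the assignment of reads to single members is uncertain.

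Of the secreted factors, 3 of 10 had values and all 3 were past 4-fold. *Fgf8*, a fibroblast growth factor, had 227.7, 1227, 1161, 951.2, 108.1, 84.7 and 0 CPM in the oocytes and at most 15.3 CPM in a somatic cell, with a log2 ratio of 10.13 (8.27 to 13.18). It was highest in replicates 7, 8 and 9 and at 0 in replicate 12. *Nptx2*, a secreted pentraxin, had 39.6, 55.7, 40.5, 3.99, 80.6, 29.5 and 167.1 CPM and no somatic count, at least 53.5-fold higher. *Bmp15* had a log2 ratio of 9.90 (8.92 to 11.11).

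Genes that store maternal mRNA or control its translation were higher in oocytes in 4 of 4 compared, of 18 on the list and 5 with values. Without the 5 somatic cells with stroma genes described below, the remaining gene, *Nanos3*, was compared too. It was then past 4-fold in somatic cells, at -2.39. *Ybx2*, which coats stored mRNA, had 234.2, 339.8, 379.0, 440.7, 102.6, 112.3 and 310.3 CPM against 1 somatic cell with reads, at 12.4 CPM. *Zar1l*, of the zygote arrest family, ranged from 0 to 903.4 CPM and *Patl2*, a translational repressor of oocytes, from 0 to 456.1 CPM, both with 0 in replicate 12. Their log2 ratios were 9.89 (7.40 to 15.19), 10.61 (8.13 to 15.91) and 10.17 (7.69 to 15.47), and that of *Dazl* was 7.68 (7.16 to 8.26). *Ybx2* was the only one of these 4 in which every oocyte stood above every somatic cell.

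Meiotic genes were read at low levels. *Sycp1*, the transverse filament of the synaptonemal complex, had 395.9, 104.0, 42.3, 191.3, 7.33, 27.5 and 95.5 CPM in the oocytes, and *Tex12*, of its central element, 36.3, 104.0, 77.3, 133.6, 12.8, 21.7 and 107.4 CPM. Neither had a count in any somatic cell, which puts *Sycp1* at least 123.5-fold and *Tex12* at least 78.1-fold higher in oocytes. *Syce3*, of the same structure, was at 5.95 CPM and 0, at least 6.93-fold (4.61-fold without replicate 9). Of 20 genes on the list 7 had values and these 3 were compared, while *Dmc1*, *Spo11* and *Rec8* had no count in either group. A count of 0 allows up to 3 counts over a group.

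Of the 15 transcription regulators of the oocyte list 3 were compared, and 2 were past 4-fold. *Sohlh1*, a basic helix-loop-helix factor, had 13.2, 243.3, 171.1, 500.5, 304.1, 575.2 and 2805 CPM, and its partner *Sohlh2* 6.60, 7.43, 12.9, 11.97, 80.6, 104.4 and 1206 CPM. Both were highest in replicate 12, and *Sohlh2* had no somatic count, at least 83.5-fold, or at least 45.9-fold without replicate 12. *Taf4b*, a TFIID subunit of germ cells, had 83.3 CPM in the oocytes, with reads in all 7, and 85.3 CPM in the somatic cells, with reads in 7 of 32, so that the pooled levels did not differ beyond counting error (log2 ratio -0.03, -0.28 to 0.21). No gene of the 18-gene piRNA list had values on this plate.

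**Figure D3:**
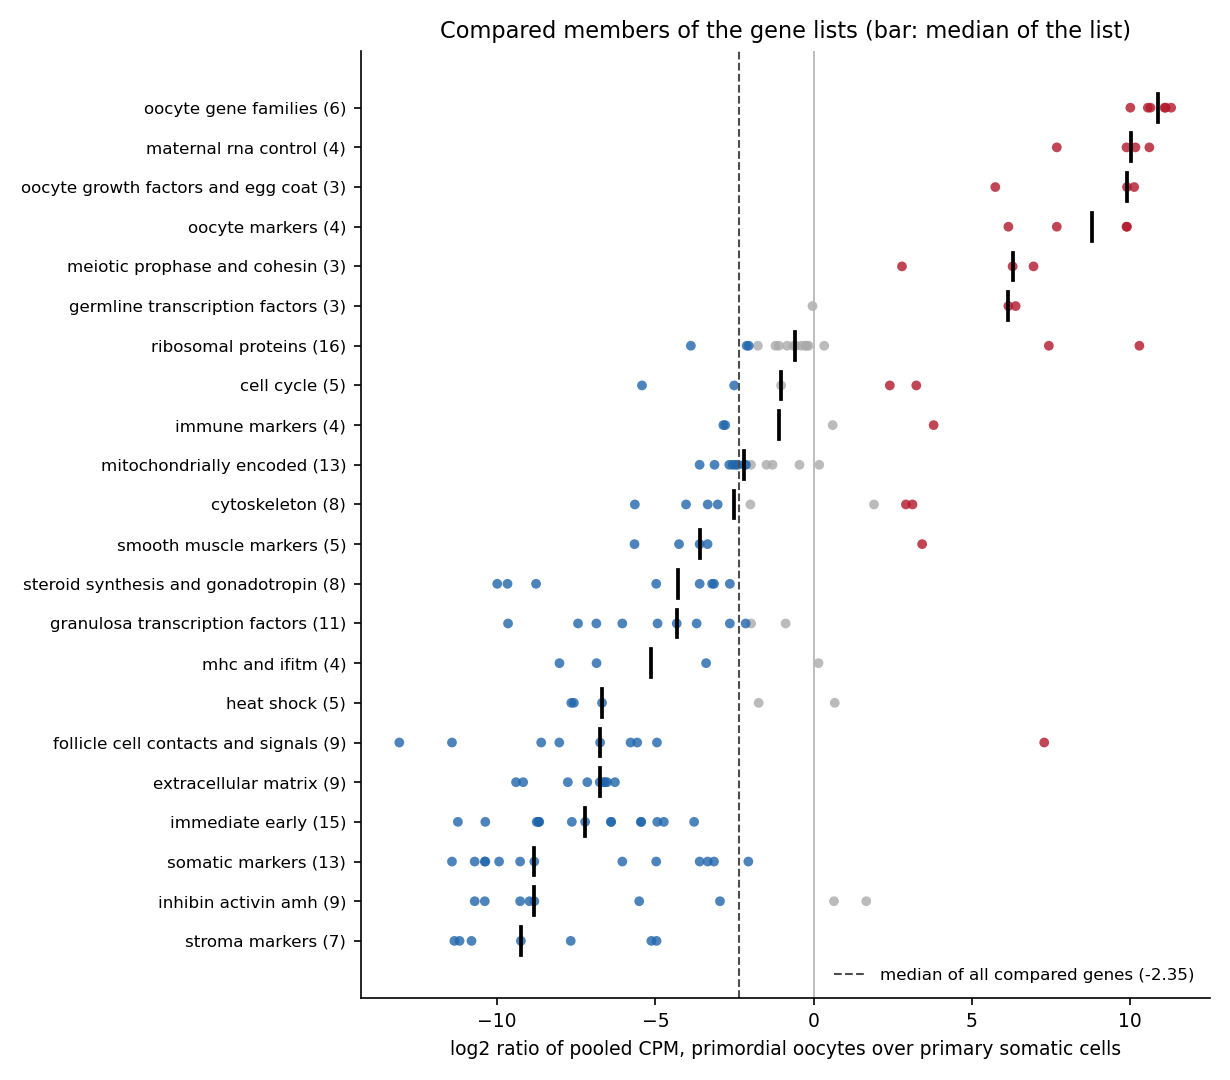
Each point is a compared gene of a fixed list, with its log2 ratio of pooled CPM, oocytes over somatic cells, on the horizontal axis; bars are list medians, and the dashed line is the median of all compared genes, -2.35. Oocyte lists lie to the right, with medians of 6.15 to 10.87, and granulosa, immediate early and matrix lists to the left.

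The somatic end of the ranking held *Thbs1*, *Gja1*, *Wnt6*, *Cyr61*, *Mdk*, *Akr1c14*, *Tmem184a*, *Amhr2*, *Mid1ip1*, *Matn2*, *Sel1l3*, *Spaca6*, *Erbb2*, *Zadh2* and *Inha*. *Thbs1*, thrombospondin 1 of the matrix, had 0.331 CPM in the pooled oocytes, from 1 oocyte, and 4512 CPM in the somatic cells, where the lowest, median and highest cells had 0, 3343 and 21222 CPM. Its log2 ratio was -13.74 (-19.04 to -11.26), and without replicate 12, the 1 oocyte with a read, it was a bound of -12.11. No gene of these 15 separated the groups in every cell, since at least 1 somatic cell of 32 had no read of each. Of the 15, 12 rested on 1 to 3 oocyte counts. In 10 of the 15 the oocyte reads came from 1 oocyte, which was replicate 12 in 4.

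Gap junction genes went opposite ways. *Gja4*, connexin 37, the connexin of the oocyte side, had 1412, 8774, 6561, 1338, 2566, 1499 and 942.9 CPM in the oocytes and reads in 4 of 32 somatic cells, at most 580.4 CPM. Every oocyte was above every somatic cell, and the log2 ratio was 7.29 (6.98 to 7.61). *Gja1*, connexin 43, which joins granulosa cells, had 0, 0, 1.84, 0, 1.83, 0 and 0 CPM in the oocytes and 0, 5430.5 and 19838 CPM at the lowest, median and highest somatic cell, with reads in 31 of 32. Its log2 ratio was -13.09 (-16.14 to -11.24).

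The other signals between follicle cells were higher in somatic cells. Of the 25 genes on that list 10 had values and 9 were compared, 1 past 4-fold in favour of the oocytes (*Gja4*) and 8 in favour of the somatic cells, with a median of -6.75. *Wnt6*, a WNT ligand, had 0.331 and 909.5 CPM with reads in 27 of 32 somatic cells, and *Wnt4* had 0 and 47.2 CPM in 13 cells. *Gas6*, the ligand of the TAM receptors, was the 1 gene of the list with reads in all 32 somatic cells, at 12.02 to 7568 CPM, and it had 56.1, 57.6, 42.3, 49.9, 113.6, 41.4 and 0 CPM in the oocytes. For the NOTCH pathway, the receptor *Notch1* had 1.65 and 177.4 CPM, the receptor *Notch3* had 0 and 30.6 CPM, and the targets *Heyl* and *Hes1* had 1.98 and 520.3 and 0.331 and 128.9 CPM. The 2 targets had reads in 24 of 32 somatic cells each.

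In the inhibin, activin and AMH list 9 of 18 genes had values, of which 7 were past 4-fold in somatic cells and none in oocytes. *Inha* had a log2 ratio of -10.39 (-10.88 to -9.94), -11.32 without replicate 9, with 12.9 and 17285 pooled CPM. The activin subunits *Inhba* and *Inhbb* had 149.9 and 500.004 CPM in the somatic cells, and *Inhbb* had no oocyte count, at least 504.0-fold. *Amh*, the hormone, had 0.331 and 204.5 CPM, with reads in 27 somatic cells. *Amhr2*, its receptor, had no count in any of the 7 oocytes and 1763 CPM at the median somatic cell, at least 1672-fold higher. Of the receptors, *Bmpr2* had 47.2, 40.7, 49.7, 41.9, 58.6, 169.4 and 787.8 CPM in the oocytes against a pooled 689.0 in the somatic cells, and the 2 genes under 4-fold were activin receptors: *Acvr1b* with 46.96 and 30.1 CPM and *Acvr2b* with 39.02 and 12.3 CPM. With TMM factors *Acvr2b* passed 4-fold in favour of the oocytes and 6 genes stayed past it in favour of the somatic cells.

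Steroid and gonadotropin genes were past 4-fold in somatic cells in 8 of 8 compared, with a median of -4.29 (7 of 8 with TMM factors and 5 with median-of-ratios factors). *Hsd3b1*, which makes progesterone from pregnenolone, had 0, 7.48, 7.41, 85.7, 3.66, 0 and 0 CPM in the oocytes and 0, 5364 and 26959.6 CPM at the lowest, median and highest somatic cell, with a log2 ratio of -8.77 (-9.19 to -8.38), or -10.91 without replicate 9. *Hsd17b1* had 0.331 and 337.3 CPM. *Cyp19a1*, aromatase, and *Fshr*, the FSH receptor, were read in few somatic cells, 9 and 8 of 32, at pooled levels of 124.6 and 44.1 CPM. *Esr2*, oestrogen receptor beta, was also present in every oocyte, at 11.8 to 303.1 CPM, against a pooled 978.8 CPM. *Cyp11a1*, *Lhcgr* and *Pgr* had no count in either group.

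Transcription factors of granulosa cells were past 4-fold in somatic cells in 9 of 11, with a median of -4.32 (7 with TMM factors). Without replicate 12 the count was 10. *Id2*, an inhibitor of helix-loop-helix factors, was counted among the 9 with 35.4 and 156.6 CPM, but all its somatic reads lay in the 5 cells with stroma genes described below, and without them it turned to the oocytes, at least 34.02-fold. It was also under 4-fold without replicate 10 (-1.94) or 11 (-1.95). *Gata4* had 8.27 and 1438 CPM, with reads in 29 of 32 somatic cells, and *Foxl2*, which keeps granulosa identity, 1.98 and 130.9 CPM with reads in 23. *Nr5a1* and *Nr5a2*, nuclear receptors of steroidogenic cells, had 346.5 and 582.8 CPM in the somatic cells and 2.98 and 29.1 in the oocytes. The 2 under 4-fold were *Emx2* (33.1 and 60.997 CPM) and *Nr0b1* (18.5 and 72.7 CPM). *Sox4* had the lowest log2 ratio of the list, -9.65 (-12.70 to -7.80), and reads in 1 oocyte. Without replicate 9, that oocyte, its ratio was a bound of -8.81.

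Matrix and basement membrane genes were past 4-fold in somatic cells in 9 of 9 compared, with a median of -6.76. *Sparc*, a collagen-binding glycoprotein, had 0, 0, 0, 153.6, 0, 7.88 and 47.7 CPM in the oocytes and 1039.9, 4932 and 15858 CPM at the lowest, median and highest somatic cell, so that the lowest somatic cell lay above the highest oocyte. *Col18a1*, a basement membrane collagen, had 4.96 and 3355 CPM, and *Lama1*, a laminin chain, 11.9 and 1180.1 CPM. *Timp1*, *Timp3*, *Nid2* and *Bcam* had no oocyte count. The whole list stayed at 9 of 9 when the 5 somatic cells with stroma genes, described below, were left out.

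All 15 compared immediate early genes of 26 were past 4-fold in somatic cells, with a median of -7.22. Without the 5 somatic cells with stroma genes described below 14 were, since *Klf4*, a zinc-finger factor, went from -3.77 to -1.65. *Jun*, a subunit of AP-1, had 0, 0, 0, 13.96, 1.83, 7.88 and 668.4 CPM in the oocytes and 703.5, 9534 and 21770.2 CPM at the lowest, median and highest somatic cell. *Ier2* had 0, 12.998, 7.36, 3.99, 10.99, 15.8 and 322.3 CPM in the oocytes and 360.7 to 6239.7 CPM in the somatic cells, and both genes were higher in every somatic cell than in every oocyte. *Nr4a1*, an orphan nuclear receptor, was read in replicate 12 alone among the oocytes, at 310.3 CPM, and reached 25664 CPM in a somatic cell. *Myc*, *Atf3*, *Dusp6* and *Ier5* had no oocyte count, and for *Myc*, with 1315 CPM in the somatic cells, the ratio was at least 1326-fold. Replicate 12 was the highest oocyte for *Jun*, *Ier2*, *Zfp36* (179.0 CPM), *Btg2* (214.8 CPM) and *Cyr61* (23.9 CPM, 2 counts). Immediate early genes also respond to cell handling, and pipette size, plate code and, by one of its descriptions, Accutase time went with the groups, so that their part cannot be told apart from that of the cell type here.

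Among heat shock genes 3 of 5 were past 4-fold in somatic cells, a share near the 53% of all compared genes. *Hspa1a* and *Hspa1b*, the inducible HSP70 pair, had 13.5 and 10.4 CPM in the oocytes and 2575 and 2089 CPM in the somatic cells, and since they are nearly identical their split is uncertain. *Bag3*, a co-chaperone, had 2.98 and 306.1 CPM. The mitochondrial chaperones *Hspa9* and *Hspe1* were under 4-fold, with log2 ratios of -1.74 (-1.81 to -1.66) and 0.67 (0.59 to 0.75). Replicate 12 again stood highest among the oocytes for *Hspa1a*, at 394.8 CPM.

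Cytoskeletal and cell cycle genes were divided. *Tubb2a* and *Tubb6*, beta tubulins, had 2394 and 2568 CPM in the oocytes and 316.9 and 294.4 CPM in the somatic cells, log2 ratios of 2.92 (2.83 to 3.01) and 3.12 (3.03 to 3.22), and for *Tubb6* 6.997 without the 5 stroma-gene cells. *Tuba1a*, an alpha tubulin, and *Tmsb4x*, which binds actin monomers, were past 4-fold the other way, with 139.6 and 2279 and 15.9 and 795.8 CPM. *Birc5*, survivin, and *Ube2c*, the ubiquitin-conjugating enzyme of the anaphase-promoting complex, were higher in oocytes, with log2 ratios of 3.25 (3.17 to 3.32) and 2.41 (2.35 to 2.46). *Ube2c* had 1337, 5311, 5760.5, 10723, 1429, 1854 and 5180.2 CPM in the oocytes and reads in 17 of 32 somatic cells, up to 6470.4 CPM, so the groups overlapped. Without replicate 9 its log2 ratio was 1.97, under 4-fold. *Ccnd1*, cyclin D1, and *Cdkn1b*, the inhibitor p27, were past 4-fold in somatic cells, with 1.43 and 61.1 and 54.6 and 310.4 CPM.

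Mitochondrially encoded genes were past 4-fold in somatic cells in 8 of 13, with a median of -2.20, close to the -2.35 of all genes, and in 2 of 13 with TMM factors. *mt-Co1*, subunit 1 of cytochrome oxidase, had 252.6, 545.7, 1234, 919.2, 1222, 6402 and 14938 CPM in the oocytes and 8786 to 42402 CPM in the somatic cells, so that replicate 12 lay inside the somatic range. *mt-Nd1* had 1059 to 5564 CPM in the oocytes and 6074 to 34101 CPM in the somatic cells. Its log2 ratio of -2.20 fell under 4-fold without replicate 10 (-1.99), and without replicate 12 the count of the list was 9 of 13. Ribosomal protein genes had a median log2 ratio of -0.60 over 16 compared, with 2 past 4-fold in oocytes and 3 in somatic cells, and a median of 0.49 with TMM factors, so their direction depended on the scaling. The 2 in favour of the oocytes were *Rpl39l* and *Rpl10l*, autosomal paralogs of X-linked ribosomal protein genes, with 359.5 and 0.286 and 148.5 and 0 CPM. *Rpl39l* put every oocyte above every somatic cell.

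The somatic group was not all of a kind. Of its 32 cells 5 (replicates 7, 17, 21, 25 and 30) had reads of 5 or 6 of the 7 stroma genes with values, and the other 27 had reads of at most 2. In those 5 cells *Col1a1*, a fibrillar collagen, stood at 4925 to 17070 CPM and in the others at no more than 8.59 CPM, and *Dcn*, decorin, at 797 to 11520.4 CPM and at 0. Both are among the 7 genes that set the 5 cells apart. Of the same 7, *Col3a1* had reads in 8 of the 27 others, up to 1600 CPM, and *Col1a2* in 6, up to 1081 CPM. *Inha* was read in 1 of the 5, at 6582 CPM, and in 27 of 27 others, at 7896 to 46811 CPM. *Amhr2* was read in 1 of 5 and 27 of 27, and *Hsd3b1* reached at most 257 CPM in the 5 and a median of 6194 CPM in the 27. Without the 5 cells 1022 genes were past 4-fold in oocytes and 2501 in somatic cells, and the count of genes with every somatic cell above every oocyte went from 10 to 20. *Gja1* (637.9 to 6959 CPM in the 5) and *Jun* (2390.4 to 10182 CPM) were read in both kinds of cell. The stroma list itself was past 4-fold in 7 of 7, with a median of -9.25, and 2 of its genes were still compared without those cells. The place of these 5 cells in the follicle is not given by the labels.

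**Figure D4:**
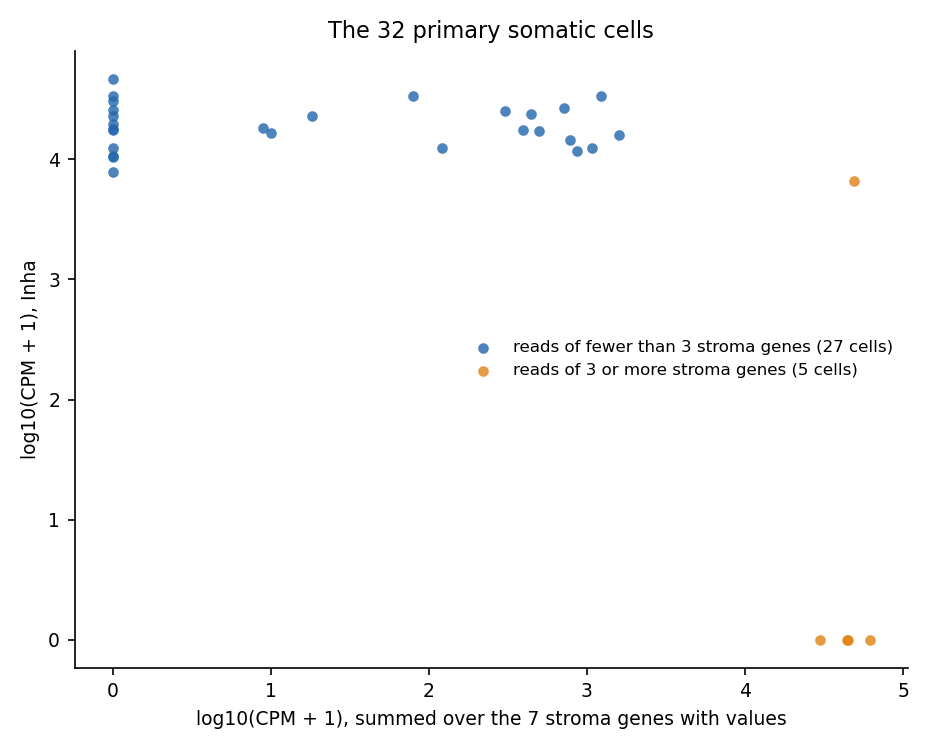
Each point is 1 of the 32 somatic cells, with log10(CPM + 1) summed over the 7 stroma genes with values on the horizontal axis and log10(CPM + 1) of *Inha* on the vertical axis. The 5 cells with reads of 3 or more stroma genes lie at the right, 4 of them with no *Inha* read, and the 27 others all hold *Inha* at 7896 CPM or more.

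Markers of other cell types were mostly sparse in both groups. Of the immune markers with values 4 of 9 were compared, 1 past 4-fold in oocytes and 2 in somatic cells, and *Lyz2*, *C1qa*, *Tyrobp* and *Fcer1g* had no count in either group. Of the 7 ovarian surface epithelium markers 2 were compared, both past 4-fold in somatic cells, and neither was with TMM factors. Of the red blood cell markers none of 6 reached 5 CPM. *Cdh5*, of endothelium, had no oocyte count and reads in 4 of 32 somatic cells, up to 1578 CPM, while *Kdr*, *Emcn* and *Esam* had none in either group. On the same list *Cldn5* and *Egfl7* had 2.31 and 0.992 CPM in the oocytes and no somatic count, too low to be compared. *Acta2*, smooth muscle actin, was read in 5 somatic cells, up to 16480.4 CPM. The 5 were cells with stroma genes described above. Without them *Acta2* had no somatic count and turned to the oocytes, from a log2 ratio of -5.66 to at least 3.35, and smooth muscle markers went from 4 past 4-fold in somatic cells and 1 in oocytes to 0 and 2. *Cdh5* went from -5.57 to a bound of -2.07. It then had 4.16 CPM in the somatic cells, under the minimum of 5 CPM, and was no longer compared. In the oocytes the summed share of the somatic markers was 0.00293% to 0.0334% of counts, highest in replicate 12, against a median of 2.77% in the somatic cells, and that of the oocyte markers was 0.201% to 0.727% in oocytes and at most 0.0602% in a somatic cell.

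The 7 oocytes differed among themselves. Over the compared genes, the correlation of log2(CPM + 1) was highest between replicates 7 and 8 (r = 0.936) and between replicates 10 and 11 (r = 0.912). Replicate 12 had the lowest correlations, 0.535 to 0.721 with the other 6, and replicate 6, the next, had 0.713 to 0.818 with replicates 7 to 11. All 7 share the plate code, and these values carry depth and the share of clone-named genes with them. That share was 20.8%, 36.7%, 37.5%, 21.99%, 71.3%, 65.5% and 23.7% of counts from replicate 6 to 12. Replicate 12 had the lowest total, 83781 counts, the highest intronic share, 14.1%, and the lowest coding share, 33.6%. It was the lowest oocyte for *Bmp15*, *Gja4*, *Bcl2l10*, *Fbxw18*, *Fbxw24* and *Fbxw26* and the highest for *Sohlh1*, *Sohlh2*, *Jun*, *Nr4a1*, *Inha* and *mt-Co1*. It holds 2.77% of the pooled oocyte counts, and genes read mainly in it still moved without it: the log2 ratio of *Jun* went from -8.69 to -11.15.

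The oocyte of the primary follicle gives the cell type contrast within 1 plate code and 1 stage, from 1 cell. It had 780.3 CPM of *Bmp15*, 2038 of *Dazl*, 6219 of *Ooep*, 2892 of *Gja4*, 4333 of *Fbxw18* and 7113 of *Khdc1b*, and no read of *Inha*, *Amhr2* or *Gja1*. For *Bmp15* it lay between replicate 12 and the other primordial follicle oocytes, and for the other 5 oocyte genes inside their range. *Jun* stood at 4.21 CPM and *mt-Co1* at 8882 CPM. Against the same somatic cells, 757 of 5055 compared genes were 4-fold or more higher in this oocyte (15% of those compared) and 1823 were 4-fold or more lower (36.1%). Because both contrasts share the somatic cells, their values stand side by side only. The correlation of this oocyte with the primordial follicle oocytes was highest for replicates 10 (r = 0.901) and 11 (r = 0.895).

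**Figure D5:**
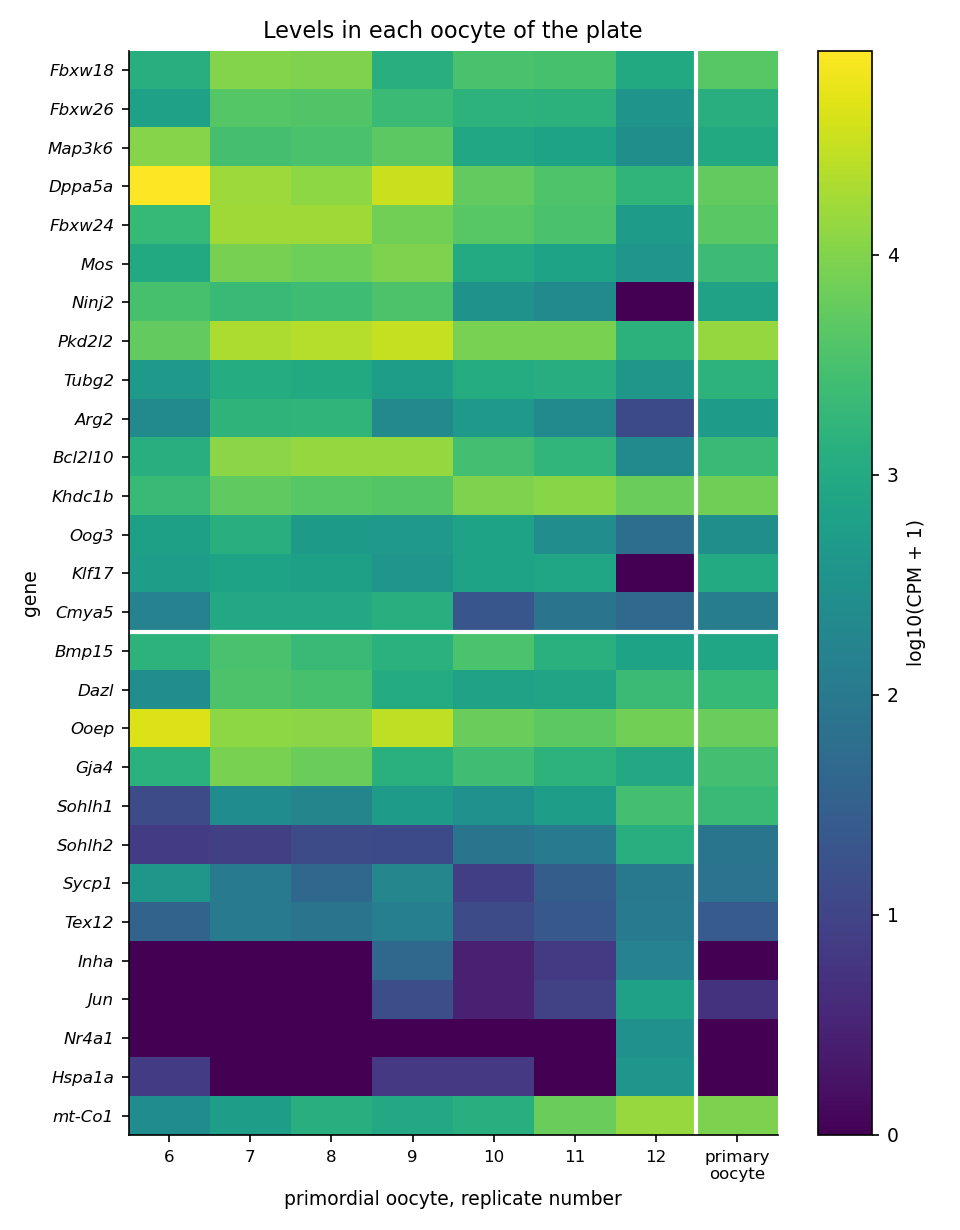
Rows are the 15 genes at the oocyte end of the ranking and 13 others, columns the 7 primordial follicle oocytes by replicate number and the 1 primary follicle oocyte, and colour is log10(CPM + 1) in the cell. *Dppa5a* and *Ooep* are brightest in replicates 6 and 9, and replicate 12 is dark for *Ninj2* and *Klf17* and bright for *Jun*, *Nr4a1* and *Hspa1a*.

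Plate 1 held the same contrast in other cells, 5 primordial follicle oocytes and 5 primary somatic cells, where 27.4% of 6725 genes compared were 4-fold or more higher in oocytes and 21.6% in somatic cells. Of these 5 oocytes 1 carried the plate code of the primordial follicle oocytes of plate 2. Over the 2343 genes compared on both plates, 348 were higher in oocytes on plate 2, and 201 of these (57.8%) were past 4-fold the same way on plate 1, where 21.8% of all shared genes were. Of 1272 genes higher in somatic cells on plate 2, 739 (58.1%) were past 4-fold the same way, where 35.6% of all shared genes were. The direction alone held for 298 (85.6%) and 957 (75.2%), and 16 and 124 genes were past 4-fold the opposite way. Against the 5 oocytes' own stage, the primordial somatic cells of that plate, 228 of 361 (63.2%) and 976 of 1452 genes (67.2%) were past 4-fold the same way, where 22.4% and 44.6% of all shared genes were. With the primary follicle oocytes of plate 1 over its primary somatic cells, 272 of 396 (68.7%) and 814 of 1180 (68.98%) were, where 20.8% and 40.7% were. Of those 7 oocytes replicate 1 had 801258 counts and each other at most 118876. On plate 1, 3 of the 5 primordial follicle oocytes carry in the cell metadata the time code of secondary follicle cells, and without them 102 of 228 genes (44.7%) and 357 of 1180 (30.3%) passed 4-fold the same way, where 22.3% and 24.7% of all shared genes did. Of the 2 oocytes left, 1 had 8352 counts. Replicate 56 of the primary somatic cells also carries the time code of secondary follicle cells, and it was kept.

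Of the 15 genes at the oocyte end of the ranking 12 were compared on plate 1. Against its primary somatic cells 5 were past 4-fold in favour of the oocytes, among them *Mos* (4.66), *Oog3* (4.62) and *Cmya5* (3.37), 3 were above 0 and 4 below. On plate 1, *Bmp15* had 0, 6.14, 30.5, 95.7 and 0 CPM in the 5 primordial follicle oocytes, replicates 1 to 5, and 281 CPM in 1 of 5 somatic cells, a pooled log2 ratio of -0.92. The 4 ranked genes below 0 were *Fbxw18* (-0.90), *Fbxw24* (-1.43), *Fbxw26* (-0.98) and *Klf17* (-1.27), as were *Patl2* (-1.59) and *Tubb6* (-1.80), and *Dppa5a* had 470.9 and 283.8 CPM. Over the primordial somatic cells of plate 1 the same oocytes had log2 ratios of 6.01 for *Bmp15*, 2.28 for *Fbxw18*, 1.796 for *Fbxw24*, 4.67 for *Fbxw26*, 5.15 for *Klf17* and 1.81 for *Patl2*, all in favour of the oocytes, and of -2.17 for *Tubb6*. There 11 of the 12 ranked genes were past 4-fold, as were 13 of 13 with the primary follicle oocytes over the primary somatic cells. *Dazl* (at least 8.33, with no somatic count on plate 1), *Ooep* (4.09), *Khdc1b* (3.33), *Oas1d* (4.97) and *Gja4* (4.91) stayed past 4-fold in favour of the oocytes, and *Inha* (-6.56), *Gja1* (-5.43), *Amhr2* (-6.28), *Jun* (-7.25) and *Sparc* (-7.02) in favour of the somatic cells. For *Bmp15* the primary follicle oocytes of plate 1 had a log2 ratio of 3.32 over the same somatic cells. Replicate 1 of these oocytes, by far the deepest, had 1146 CPM of *Bmp15* and 2100 of *Fbxw18*. The others had at most 118 and 215 CPM, and the pooled primary somatic cells of plate 1 had 79.8 and 179. Neither this ratio nor the 13 of 13 above was computed without replicate 1.

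Across all oocytes of the study, scaled to the 13266 genes listed on every plate, *Bmp15* in the 7 primordial follicle oocytes of plate 2 ranged from 1096 to 4270.2 CPM, with a median of 2374. The 5 of plate 1 had 0 to 425 and the 1 of plate 5 had 657 CPM, so that the plate 2 oocytes stood above all other primordial follicle oocytes. Primary follicle oocytes had 0 to 2726 CPM on plate 1, 920.5 on plate 2, 8928 to 14262 on plate 5 and 6343 to 20058 on plate 6, and secondary follicle oocytes 13362 to 27164. *Dazl* on the same scale had 407 to 4657 CPM in the plate 2 primordial follicle oocytes and 960.5 to 3393 in those of plate 1, which overlap. Stage and plate are not balanced in the study, and the order of *Bmp15* by plate cannot be told apart from the cells that each plate drew.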

How the data were processed

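Each cell was 1 paired-end SMART-Seq2 library without molecular identifiers. The authors aligned the reads to GRCm38, removed cells of few genes and cells with mixed marker scores, and analysed them in Seurat (version 4); the aligner is not given in the sources used here. The deposited table holds estimated counts per gene and cell, not normalized, of which 21.9% of those above 0 were not whole. The deposited cell metadata give counts of reads and of genes detected, and, as fractions made by the authors, the shares of ribosomal, mitochondrial, intronic, coding, intergenic and duplicate reads, shown here as percentages. Totals of all 40 cells of the plate equalled those of the authors (relative tolerance 1e-06). Of 25149 table entries 27 carried dates for names (0.0743% of counts) and were left out, and 15672 genes had values on plate 2. No count column was left unmapped, and no pair of cells had identical counts.

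For each group the counts of its cells were added up, scaled to CPM and compared as log2 ratios where either group had at least 5 CPM. A group without counts was set at 3 counts, and a ratio given as a bound or as at least a value is that ratio. Such a bound leaves out the counting error of the other group. Intervals of ratios are exact binomial ones at 95% and cover counting error only, since PCR copies are not independent molecules. A log2 ratio of 2 or more in size was called 4-fold. Named genes are the members of 28 lists, the 15 largest and 15 smallest ratios with clone-named genes left out, and the 10 highest levels of each group; the members and lists were chosen with earlier results of these data known. The genes printed from this rule were picked after their values were seen. Positions are from GENCODE M21 (10624 genes matched by symbol) and promoters from RefSeq. The computation used Python 3.11.15, numpy 2.4.6, pandas 2.3.3, scipy 1.17.1, R 4.3.3, edgeR 4.0.16 for TMM factors and DESeq2 1.42.0 for median-of-ratios factors, with no count model fitted, and was tested on simulated data. Alternatives were both factors, means and medians of single cells, thinning to 20000 counts, minimum levels, a 2-fold call, a shared gene total, and leaving out clone-named genes, each oocyte, the 5 cells with stroma genes or *Gm10800*; plate 1 was compared alike. The primary follicle oocyte in place, the omission of *Gm10800*, the non-overlap without stroma cells the ratios of single genes without stroma cells and the time codes of plate 1 were chosen after seeing the data.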

Additional observations from a re-analysis of the deposited data

Results flagged for a closer look

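Among the 7 oocytes, 1 cell stood apart from the other 6 by a gap above Dixon's 95% critical value for 7 samples in 56 of the 153 series of values examined, 51 of them genes. Chance marks about 1 in 20 groups, the series are not independent since they come from the same cells, and in 21 of the 51 genes the cell was simply the only oocyte with a read. Replicate 12, the oocyte of the lowest depth, was the cell in 32 of the 56, replicate 9 in 14 and the other 5 oocytes in 1 to 4 each.

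Replicate 12 had reads of 2236 genes at the thinned depth, the most of the oocytes, 14.1% of its reads in introns, also the highest, 33.6% in coding sequence and 3.62% of its reads in the count table, both the lowest, and 0.0859% of its counts from *Gm10800*, the highest. By CPM it was the highest oocyte for *Bmpr2* (787.8), *Ccnd1* (11.9), *Cdkn1b* (298.4), *Dnmt3b* (131.3), *Gm10800* (858.7), *Heyl* (23.9), *Hspa1a* (394.8), *Hspa1b* (202.0), *Hspa9* (2209.6), *Id2* (155.2), *Ier2* (322.3), *Inha* (155.2), *Jun* (668.4), *Lama1* (107.4), *Nr0b1* (131.3), *Nr5a1* (35.8), *Sohlh1* (2805), *Sohlh2* (1206), *Zfp36* (179.0) and *mt-Co1* (14938). These hold oocyte regulators (*Sohlh1*, *Sohlh2*), immediate early and heat shock genes and granulosa genes alike. With reads in replicate 12 and no other oocyte there were *Akr1c14* (23.9), *Amh* (11.9), *Cyr61* (23.9), *Dcn* (47.7), *Mid1ip1* (43.2), *Nr4a1* (310.3) and *Thbs1* (11.9). In this cell 11.9 CPM is 1 count, 23.9 CPM is 2 and 47.7 CPM is 4, so that several of these values rest on very few reads.

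Replicate 9 stood highest for *Cyp19a1* (13.96), *Emx2* (131.6), *Gstm1* (245.3), *Hsd3b1* (85.7), *Ifitm2* (37.9) and *Sparc* (153.6) CPM, and was the only oocyte with reads of *Bag3* (17.9), *Erbb2* (5.98), *Foxl2* (11.97), *Mdk* (1.99), *Sox4* (3.99), *Tmem184a* (5.98), *Tmsb4x* (95.7) and *Wnt6* (1.99). Of the latter, *Mdk* rested on 1 count, *Erbb2* on 3, *Foxl2* on 6 and *Bag3* on 9. Replicate 6 stood highest for *Acvr2b* (102.3), *Dppa5a* (84363) and *Ifitm3* (646.7), and was the only one with reads of *Hes1* (3.30, 1 count). Replicate 7 stood highest for *Notch1* (5.57) and alone had reads of *Spaca6* (1.86). Single oocytes also held the reads of *Hsd17b1* (1.83) and *Inhba* (1.83) in replicate 10, *Col1a1* (5.52) in replicate 8 and *Sel1l3* (1.97) in replicate 11, each at a few counts. On plate 1, 1 of the 5 primary somatic cells had 281.5 CPM of *Bmp15* and the other 4 had none. Of the 116 genes named in the text that were past 4-fold, leaving out 1 oocyte moved the ratio by over 1.5 times or ended the call in 50, most often replicate 9 (19 genes) or 12 (12 genes), and turned 0. The call ended for 3 of them. Leaving out the 5 somatic cells with stroma genes did so in 19, and turned *Acta2* and *Id2*, and *Col1a1* and *Dcn*, which then had a few counts at most in either group. The part of depth or of RNA from other cells in these values was not tested.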

How the results depend on the processing

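No paired analysis was possible because replicate numbers name single cells, no label ties a cell to an animal, and no test was run. With cells thinned to 20000 counts, 634 genes were 4-fold or more higher in oocytes and 1003 in somatic cells, of 4751 compared. With at least 50 CPM, the counts were 411 and 1249 of 2631, with medians of single cells (1 CPM added) 1977 and 507, and with the primary follicle oocyte in place of the 7 oocytes 1823 in somatic cells. Without clone-named genes 1838 were higher in somatic cells, and on plate 1 1011, of 2907 genes listed on both plates. Genes without overlap numbered 161, 69 with thinned cells and 285 without the oocyte of the lowest depth (replicate 12), where fewer cells have to be separated. The 940 genes past 4-fold the same way on plate 1 became 459 without the 3 oocytes with time codes of secondary cells, where fewer genes are compared, and were 1204 and 1086 in the contrasts matched by stage. For the rest of these values the cause was not tested.

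Of 159 named genes past 4-fold, all 159 kept their direction with TMM factors, median-of-ratios factors and means of single cells, with 142, 139 and 151 still past 4-fold, and all 159 kept it without any 1 oocyte, with 154 to 159 still past 4-fold, though replicate 12 holds only 2.77% of the pooled counts. Of the 150 of these compared without the cells with stroma genes, 148 kept it, and *Acta2* (3.35) and *Id2* (5.09) turned. With medians of single cells only 116 of the 159 kept it, 115 of the 159 still past 4-fold, and *Acta2* (1.502), *Aldh1a2* (4.64), *Fshr* (1.57), *Id1* (0.17), *Id2* (5.01), *Klf4* (2.30), *Krt8* (1.66) and *mt-Co3* (0.071) turned in favour of the oocytes. The rest of the 159 neither kept their direction nor turned. On plate 1, 96 of 112 kept it, and the log2 ratio turned for *Aldh1a2* (1.91), *Bmp15* (-0.92), *Ccnd1* (0.60), *Fbxw18* (-0.90), *Fbxw24* (-1.43), *Fbxw26* (-0.98), *Gm10800* (1.43), *Klf17* (-1.27), *Patl2* (-1.59), *Tubb6* (-1.80), *mt-Atp6* (1.36), *mt-Atp8* (0.32), *mt-Co1* (0.13), *mt-Nd4* (0.26), *mt-Nd5* (0.28) and *mt-Nd6* (0.55). The somatic cell of the lowest depth had 5150.2 counts, so that a 0 there does not show absence.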

Other observations

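Chromatin and antigen-presentation genes were read for few members. *Tet3*, which oxidises methylated cytosine, had 399.2, 2126, 1514, 905.4, 1539, 1737 and 537.1 CPM in the oocytes from replicate 6 to 12 and reads in 24 of 32 somatic cells, with a log2 ratio of 2.21 (2.11 to 2.31). *Dnmt3b*, a DNA methyltransferase, had 28.9 and 102.5 CPM and was under 4-fold, but at -2.05 without replicate 7 and -2.10 without the 5 somatic cells with stroma genes. *B2m*, the light chain of MHC class I, had 501.5, 193.1, 125.1, 502.5, 32.97, 35.5 and 35.8 CPM in the oocytes and 124.5 to 7685 CPM in the somatic cells, where all 32 had reads, with a log2 ratio of -3.40 (-3.52 to -3.28). *Tap1*, the peptide transporter, had no oocyte count and 259.2 CPM in the somatic cells, at least 261.3-fold higher. *Ifitm2*, an interferon-induced membrane protein, had 185.8 to 3083 CPM in the somatic cells and at most 37.9 CPM in an oocyte, while *Ifitm3* had 106.8 and 95.9 CPM. Replicate 6 held 646.7 CPM of *Ifitm3*, and without it the pooled oocytes had 46.7 CPM, so that the log2 ratio went from 0.15 to -1.04.

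Some single values stood against their list. *C1qb*, on the immune list, had 9.90, 22.3, 22.1, 15.95, 0, 1.97 and 0 CPM in the oocytes and no somatic count, at least 13.9-fold. *Cnn1*, a calponin on the smooth muscle list, had 29.7, 72.4, 119.6, 89.7, 10.99, 7.88 and 0 CPM in the oocytes and reads in 1 somatic cell, with a log2 ratio of 3.43 (2.73 to 4.22). That cell was 1 of the 5 with stroma genes. *Gm10800*, a predicted gene, took the largest share of the pooled somatic counts, with 40103 CPM against 38.4 in the oocytes, and 8 of 32 somatic cells had over 10000 CPM of it. In the oocytes 9 of the 10 genes with the most pooled counts were clone-named, and *Dppa5a* was the other. Of the 1116 clone-named genes compared, 201 were 4-fold or more higher in oocytes and 702 in somatic cells. Among all 5225 compared genes 957 (18.3%) and 2768 (53%) were, so that the oocyte share of the clone-named genes was near that of all genes.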
